A study of Mus musculus with 14 samples.

Results

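The genes described here are 46 genes of the cell cycle and of DNA replication, chosen by name and found among the 53801 Ensembl genes that each file holds. All 46 had enough counts to be tested, as had 16287 genes in all. They were sorted by role into 14 genes of DNA replication, 22 genes of G2 phase and mitosis, and 10 regulators, a group that also holds the proliferation marker Mki67. They were measured by bulk RNA-seq of 14 subcutaneous CT26 tumors from 11 mice, at 33237744 to 48481461 expected counts a tumor. CT26 is a mouse colon carcinoma line, and the cells injected carried the ClonTracer barcode library. Female Balb/c mice of 6 to 8 weeks received 250000 cells at a site on each flank. Antibody treatment began on day 7 and consisted of 5 doses of 200 µg, given at intervals of 3 days, and the tumors were taken 3 days after dosing ended. The 5 control IgG tumors (14L, 14R, 16R, 17R and 20R) came from 4 mice given control antibody. The 5 responder tumors (24L, 26R, 30L, 30R and 35L, from 4 mice) and the 4 non-responder tumors (29L, 32R, 33L and 33R, from 3 mice) came from mice given anti-PD-1. The number names the mouse and L or R the flank, so that mice 14, 30 and 33 each gave a pair of tumors. Response had been assigned from tumor size at the end of treatment, so that the responder label is itself tied to growth. All tumors derive from 1 barcoded line in 1 host strain, and p-values measure the spread between these tumors. The main test took both tumors of mice 14, 30 and 33 as separate samples, so its p-values do not take mouse into account.

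Before a cell divides, it copies its genome in S phase and separates the copies in mitosis. E2F transcription factors, freed when cyclin D and cyclin E kinases inactivate the retinoblastoma protein, drive genes of replication. The MuvB complex, with B-MYB (encoded by Mybl2) and with FOXM1, drives genes of mitosis. The transcripts of both groups are therefore high in dividing cells and low in resting ones. In a tumor, activated T cells, macrophages and stromal cells can divide as well as the cancer cells. In a bulk sample, fewer dividing cells and less RNA of these genes per cell cannot be told apart, and neither can the shares that cancer and host cells add to a transcript.

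Promoters of the genes are shown first, because their motifs set apart the replication and mitosis groups compared below. Of the 46 genes, 35 had a promoter window in the RefSeq table for GRCm38.p6, which spans 250 bases before and 50 bases after the start of transcription. The letters TTTGAA, the core of the cell cycle homology region bound by MuvB, were searched on both strands. They were found in 12 of 17 mitosis promoters, 2 of 12 replication promoters and 1 of 6 regulator promoters, against 18.1% of all 27025 promoters. The letters CCAAT, the core of the site of the factor NF-Y, were found in 15 of 17, 9 of 12 and 2 of 6, against 37.9% of all promoters. E2F words on either strand (the word TTCCCGC, the word TTGGCGC, the word TTCGCGC or the word TTGCCGC) were found in 8 of 12 replication promoters, 2 of 17 mitosis promoters and 2 of 6 regulator promoters, against 9.69% of all promoters. E2F words can overlap each other, as they do in Mcm6. The 120 bases before the start are given for 4 mitosis genes with TTTGAA and CCAAT in that stretch and for 2 replication genes with E2F words in it. They read 5′ to 3′ on the strand of the gene, and capitals mark these letters or their reverse complement.
Cdk1: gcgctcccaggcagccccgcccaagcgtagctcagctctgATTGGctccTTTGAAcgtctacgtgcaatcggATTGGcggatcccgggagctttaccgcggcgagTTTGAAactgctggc
Cdc20: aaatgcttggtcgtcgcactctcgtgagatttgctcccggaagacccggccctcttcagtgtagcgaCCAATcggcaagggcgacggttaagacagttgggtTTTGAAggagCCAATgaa
Top2a: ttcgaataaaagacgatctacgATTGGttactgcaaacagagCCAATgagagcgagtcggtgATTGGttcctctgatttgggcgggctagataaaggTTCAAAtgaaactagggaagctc
Kif11: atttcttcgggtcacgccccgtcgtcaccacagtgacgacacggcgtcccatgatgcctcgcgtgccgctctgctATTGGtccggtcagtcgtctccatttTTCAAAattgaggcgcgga
Mcm6: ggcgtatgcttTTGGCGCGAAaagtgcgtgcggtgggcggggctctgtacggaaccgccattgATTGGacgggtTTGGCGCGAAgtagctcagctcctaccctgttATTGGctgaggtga
Rrm1: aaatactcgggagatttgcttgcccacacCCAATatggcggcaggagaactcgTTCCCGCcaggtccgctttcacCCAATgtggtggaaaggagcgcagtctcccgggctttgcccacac
The Cdk1 stretch lies at chr10:69352913-69353032 on the minus strand, and the Cdc20 stretch at chr4:118437344-118437463 on the minus strand. The Top2a stretch lies at chr11:99024190-99024309 on the minus strand, and the Kif11 stretch at chr19:37376262-37376381 on the plus strand. The Mcm6 stretch lies at chr1:128359706-128359825 on the minus strand, and the Rrm1 stretch at chr7:102441575-102441694 on the plus strand. In Cdk1, TTTGAA begins 71 and 15 bases before the start, and in Cdc20 it begins 18 bases before it. A match of letters is a description and not a bound site. As a description only, the median log2 fold change between responders and non-responders was 0.12 for the 15 genes with TTTGAA and 0.03 for those without, and 0.09 for the 12 genes with an E2F word and -0.0086 for those without. For CCAAT it was 0.06 for 26 genes with it and 0.05 for those without. With and without an E2F word, medians were 0.09 and -0.02 in replication, -0.15 and 0.10 in mitosis and 0.33 and 0.11 in regulator genes. All these medians include tumor 33R, described below, and were not taken without it.

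All 46 genes had counts in each of the 14 tumors. Per length, the highest was Pcna, the sliding clamp of the DNA polymerases, with a median level of 390 TPM (length-scaled transcript abundance) over the 14 tumors. It was followed by Ube2c, the ubiquitin-conjugating enzyme of the anaphase-promoting complex, at 316 TPM, and by Ccnd1, cyclin D1, at 299.6 TPM. Cdk1, the kinase that starts mitosis, had a median level of 297 TPM. The lowest were E2f2 at 2.56 TPM and Cdc6, which helps load the helicase at replication origins, at 9.91 TPM. The median level of Pcna exceeded that of 97.8% of the genes tested, and that of E2f2 exceeded 30.5%.

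The levels varied less between tumors than the median of all genes tested, in a comparison not matched for abundance. In CPM (counts scaled by library size), the highest tumor was between 1.29 and 3.29 times the lowest, with a median over the 46 genes of 1.56, where the median over all genes tested was 1.97. The median SD within groups was 0.17 on the log2 CPM scale for the 46 genes and 0.23 for all genes tested. The 3 most variable genes were Ccne2 (3.29 times), Mki67 (3.08 times) and Cenpf (2.95 times). The non-responder tumor 33R was the lowest tumor for Mki67 and Cenpf and the highest for Ccne2, and without it the largest range of any of the genes was 2.75 times.

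Tumor 33R stood apart from the others before any comparison. Relative to the mean over tumors, its log2 CPM fell with transcript length, with a slope over all genes of -0.30 for each doubling of length, against -0.10 in control tumor 14R and -0.04 to 0.08 in the other 12. Among the 16 genes of the set with transcripts under 2000 bases, 33R was the highest of the 4 non-responders in 10, and among the 18 over 3000 bases it was the lowest in 16. Tumors 33R and 14R also had the highest mean log2 CPM of 10 skeletal muscle markers (6.09 and 6.82, against 1.12 to 5.33 in the others). The part of muscle and of length in the results was not tested. Apart from the medians by motif, results that rest on 33R are given with and without it. Whether the counting used strand is not given in the sources used here, and 15 of the 46 genes share exon bases with another annotated gene. For 7 of them the shared part is over 10% of their exon bases, among them Gins2 (67.3%, with Gse1), Kif20a (29.3%, with Cdc23) and Ube2c (22.8%, with the muscle gene Tnnc2). Ube2c was highest in 14R, at 245 CPM, where Tnnc2 was also highest, at 92.3 CPM. In 33R, where Tnnc2 was next highest at 64.8 CPM, Ube2c was at 193 CPM. In 32R, Ube2c was at 197 CPM and Tnnc2 at 7.71 CPM. Gins2 was highest in 33R, at 79.5 CPM, where Gse1 was lowest, at 8.52 CPM. The part of shared reads was not tested, and the levels of the 7 genes are uncertain to the extent of the shared bases.

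Responders and non-responders differed in none of the 46 genes at an adjusted p under 0.05 (edgeR quasi-likelihood test, Benjamini-Hochberg over all genes tested), where 9.9% of all genes tested were called. The study called tumors below a size cutoff responders and tumors above a larger cutoff non-responders. Both cutoffs were set from the control IgG tumors, and tumors between them fell in neither group. The comparison sets these groups, given the same antibody, against each other. Its fold changes had no common sign. They were above 0 for 25 genes and below 0 for 21, from -0.53 to 0.39 on the log2 scale, with a median of 0.04 beside 0.0062 for all genes tested. At an unadjusted p under 0.05 there were 8 genes, 7 higher and 1 lower in responders, where 27.8% of all genes had such a p. DESeq2 called 2 of the 46 genes (Kif20a and Cenpa), and limma-voom called 0. Of all genes tested, they called 2634 and 1491.

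For 39 of the 46 genes, the 95% interval of this fold change lay within 1.5-fold in either direction. The other 7 were Gmnn, E2f2, Ccne2, Mki67, Cenpa, Cenpe and Cenpf. Of the 9664 genes at least as abundant as the lowest of the set, 72.2% had an interval within 1.5-fold and 11% were called. A p that misses the threshold does not show equal levels, and intervals of this width leave room for changes smaller than 1.5-fold.

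**Figure D1:**
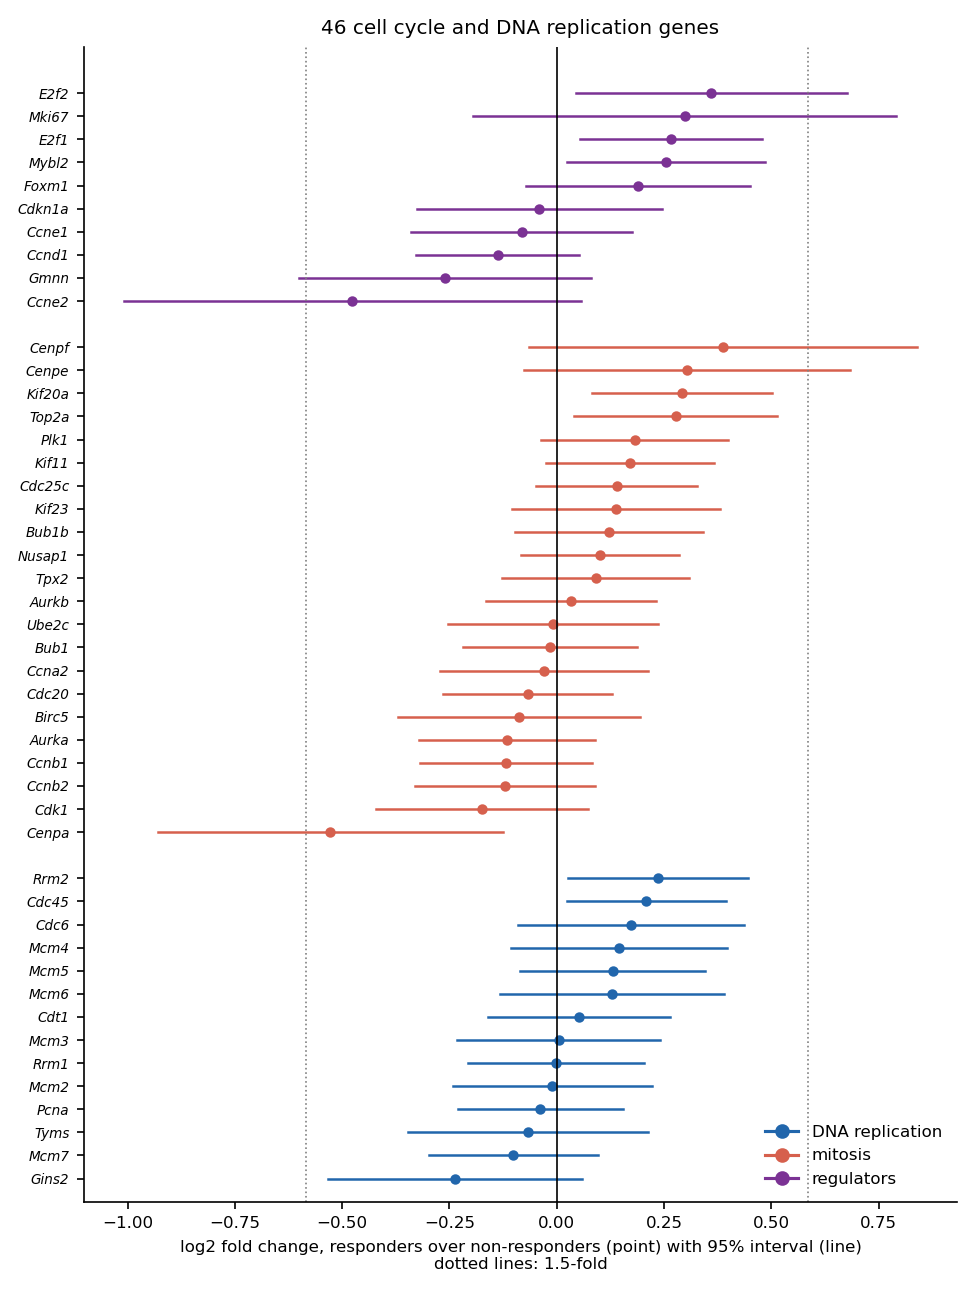
Log2 fold change between responders and non-responders for the 46 genes (above 0, higher in responders), as points with 95% intervals as lines, sorted within the 3 roles. Dotted lines mark 1.5-fold, the points lie on both sides of 0 in each role, and Cenpa at -0.53 and Cenpf at 0.39 lie farthest out.

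Among the 14 replication genes, 8 were above 0 and 6 below, with a median log2 fold change of 0.03, and 2 had an unadjusted p under 0.05. Mcm5, a subunit of the replicative helicase, was at 165, 184, 169, 167 and 212 CPM in the control tumors 14L, 14R, 16R, 17R and 20R. It was at 174, 162, 173, 207 and 179 CPM in the responders 24L, 26R, 30L, 30R and 35L, and at 153, 190.2, 149 and 160.5 CPM in the non-responders 29L, 32R, 33L and 33R. The ranges of the 3 groups overlapped, and the fitted difference in log2 CPM between responders and non-responders was 0.13 ± 0.10 (SE, adjusted p = 0.42, edgeR). Of the same helicase, Mcm2 had a log2 fold change of -0.01 ± 0.11 (SE, adjusted p = 0.96), and Mcm7 one of -0.10 ± 0.09 (SE, adjusted p = 0.50).

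Rrm2, the regulated subunit of ribonucleotide reductase, which makes deoxynucleotides, was at 170.4, 176, 182, 190.3 and 184 CPM in responders. It was at 161, 172, 148 and 132 CPM in non-responders and at 174, 184, 154, 151 and 203 CPM in control tumors. Of the non-responders, only 32R reached into the range of the responders, and the control tumors spanned that range. With a log2 fold change of 0.24 ± 0.10 (SE, adjusted p = 0.13, edgeR), Rrm2 had the highest of the replication genes. Cdc45, which activates the helicase, had 0.21 ± 0.09 (SE, adjusted p = 0.13), with responder levels of 53.2 to 62.3 CPM against 45.5 to 54.9 CPM in non-responders. For Cdc6 the log2 fold change was 0.17 ± 0.12 (SE, adjusted p = 0.38).

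Pcna was at 385, 479, 408, 406 and 498 CPM in control tumors, at 389, 394, 431, 415 and 408 CPM in responders and at 402, 436, 375 and 461 CPM in non-responders. Responders lay inside the range of the non-responders, and the log2 fold change was -0.04 ± 0.09 (SE, adjusted p = 0.82, edgeR). At the lower end was Gins2, a subunit of the GINS complex of the helicase, with -0.24 ± 0.14 (SE, adjusted p = 0.28). Its levels were 45.4, 61.3, 51.98 and 79.5 CPM in the non-responders, the last being 33R, and without 33R the log2 fold change was -0.05.

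Among the 22 mitosis genes, 12 were above 0 and 10 below, with a median log2 fold change of 0.06, and 3 had an unadjusted p under 0.05. Top2a, the topoisomerase that untangles the copied chromosomes, was at 406, 409.6, 405, 403 and 407 CPM in responders. It was at 349.9, 364, 377 and 249.8 CPM in non-responders, and at 426, 432, 343, 359 and 410.3 CPM in control tumors. The responders were tightly grouped and did not overlap the non-responders, while control tumors lay on both sides of them. The log2 fold change of Top2a was 0.28 ± 0.11 (SE, adjusted p = 0.12, edgeR), and 0.18 without 33R.

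Kif20a, a kinesin of cytokinesis, was the other of the 2 genes whose responders and non-responders did not overlap, where 12.8% of all genes tested did not. It was singled out after its values were seen. It was at 184, 194, 196, 218 and 213 CPM in responders, at 178, 182, 164 and 132 CPM in non-responders and at 178, 166, 167, 169 and 199 CPM in control tumors. The gap between responders and non-responders was that between 184 CPM in 24L and 182 CPM in 32R, and the control tumors overlapped both. Kif20a had a log2 fold change of 0.29 ± 0.10 (SE, adjusted p = 0.0707, edgeR), the smallest adjusted p of the set, and of 0.22 without 33R.

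Cdk1 and its partner cyclin B1 had point estimates of the opposite sign to Top2a. Cdk1 was at 117, 135, 132, 132 and 134 CPM in responders and at 130.0, 149, 131 and 175 CPM in non-responders, and the control tumors lay between 127 and 182 CPM. The groups overlapped, and 33R was the highest of the non-responders. For Cdk1 the log2 fold change was -0.17 ± 0.12 (SE, adjusted p = 0.34, edgeR), and -0.06 without 33R. Ccnb1, which encodes cyclin B1, had -0.12 ± 0.09 (SE, adjusted p = 0.44). Plk1, a kinase of mitotic entry and spindle assembly, had 0.18 ± 0.10 (SE, adjusted p = 0.26), and 0.10 without 33R.

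The outermost values of the mitosis genes were those of 3 centromere genes. Cenpa, the histone variant that marks centromeres, was at 66.5, 90.7, 74.6, 69.1 and 80.5 CPM in responders and at 77.7, 110.3, 88.8 and 163 CPM in non-responders. The control tumors were at 100.3, 121, 90.8, 75.5 and 104 CPM. The highest tumor of all was 33R, and the other 3 non-responders lay within the range of the control tumors. Cenpa had a log2 fold change of -0.53 ± 0.19 (SE, adjusted p = 0.0859, edgeR), the lowest of the set, and of -0.26 without 33R. Cenpf, a large kinetochore protein, was at 157, 153, 126, 126 and 146 CPM in responders and at 121, 115, 145 and 53.2 CPM in non-responders, the last being 33R. Its log2 fold change was 0.39 ± 0.21 (SE, adjusted p = 0.25) with 33R and 0.18 without it. That of the kinetochore motor Cenpe was 0.30 ± 0.18 (SE, adjusted p = 0.28) and 0.12.

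**Figure D2:**
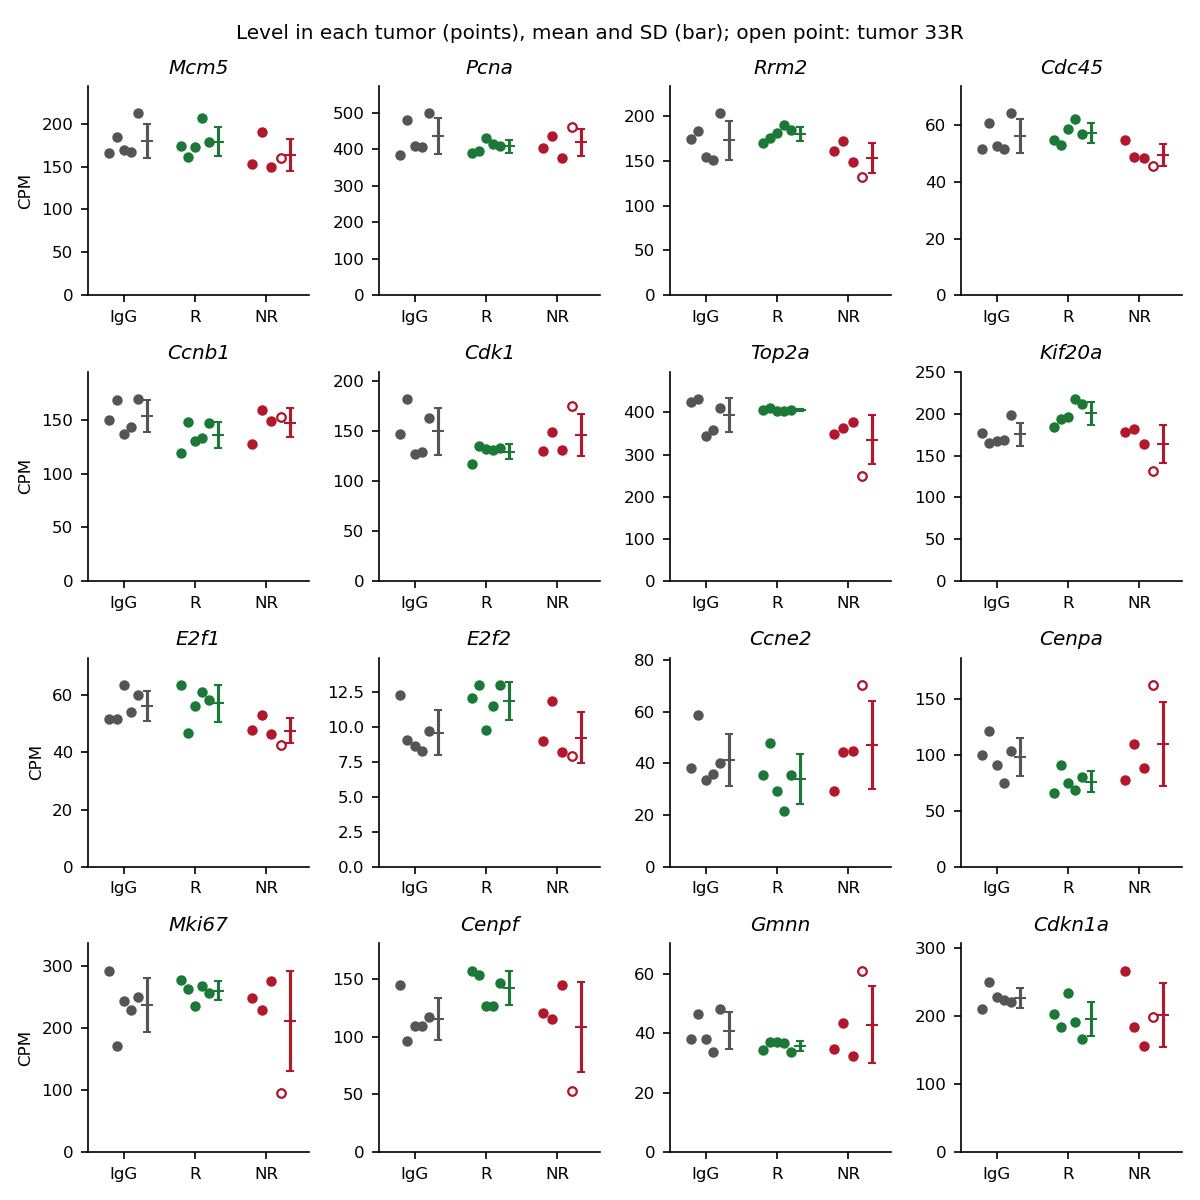
CPM of 16 of the genes in each tumor (points), with the mean and SD of each group (bars) for control IgG, responders and non-responders, and 33R drawn open. Top2a and Kif20a are the genes whose responders and non-responders do not overlap, and 33R is the lowest tumor for Mki67 and Cenpf and the highest for Cenpa, Ccne2 and Gmnn.

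Among the 10 regulators, 5 were above 0 and 5 below, with a median log2 fold change of 0.07, and 3 had an unadjusted p under 0.05. These were E2f1 and E2f2, which encode activators of replication genes, and Mybl2. E2f1 was at 63.5, 46.8, 56.4, 60.9 and 58.4 CPM in responders, at 47.9, 53.2, 46.3 and 42.7 CPM in non-responders and at 51.8, 51.8, 63.6, 54.04 and 60.02 CPM in control tumors. The responder 26R lay among the non-responders, and the other 4 lay above them. E2f1 had a log2 fold change of 0.27 ± 0.10 (SE, adjusted p = 0.0969, edgeR), and without 26R it was 0.33 with an adjusted p of 0.0403, over a range of 0.0319 to 0.26 in all settings tried. E2f2, the lowest gene of the set, was at 12.1, 13.001, 9.75, 11.5 and 13.02 CPM in responders and at 8.99, 11.9, 8.19 and 7.89 CPM in non-responders. They overlapped through 32R, with a log2 fold change of 0.36 ± 0.15 (SE, adjusted p = 0.13, edgeR). That of Mybl2 was 0.26 ± 0.11 (SE, adjusted p = 0.14), and that of Foxm1 0.19 ± 0.12 (SE, adjusted p = 0.33), which became 0.06 without 33R.

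Mki67, the gene of the Ki-67 antigen used to stain dividing cells, was at 278, 264, 236, 268 and 256 CPM in responders and at 293, 171, 243, 229 and 249 CPM in control tumors. In non-responders it was at 248, 229, 275 and 95.004 CPM, the last being 33R. Apart from 33R and the control tumor 14R, all tumors lay between 229 and 293 CPM. For Mki67 the log2 fold change was 0.30 ± 0.23 (SE, adjusted p = 0.42, edgeR) with 33R and 0.07 without it.

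The 3 G1 cyclins of the set had point estimates below 0 with all 14 tumors, and without 33R that of Ccne1 was above 0. Ccnd1, whose product activates CDK4 and CDK6, had a log2 fold change of -0.14 ± 0.09 (SE, adjusted p = 0.33, edgeR), and Ccne1, which encodes a partner of CDK2, one of -0.08 ± 0.12 (SE, adjusted p = 0.70). Without 33R they were -0.21 and 0.024. Ccne2, the gene of the other cyclin E, was at 35.7, 48.01, 29.5, 21.4 and 35.3 CPM in responders and at 29.4, 44.5, 44.7 and 70.5 CPM in non-responders. Its highest tumor was 33R, and its log2 fold change was -0.48 ± 0.25 (SE, adjusted p = 0.23) with that tumor and -0.20 without it. Gmnn, whose product holds back the loading factor CDT1, went from -0.26 ± 0.16 (SE, adjusted p = 0.30) to -0.03 without 33R. Cdkn1a encodes p21, the inhibitor of CDKs induced by p53. It was at 203, 183, 234, 192 and 166 CPM in responders and at 266, 184, 156 and 198 CPM in non-responders. The groups overlapped, with a log2 fold change of -0.04 ± 0.13 (SE, adjusted p = 0.88).

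The fold changes of the 46 genes followed transcript length with 33R in the fit and less so without it. The 16 genes under 2000 bases had a median log2 fold change of -0.08, with 3 above 0, and the 18 genes over 3000 bases had one of 0.17, with 14 above 0. Without 33R the medians were -0.0013 and 0.07, with 8 of 16 and 13 of 18 above 0. With counts corrected for length by an offset, they were 0.01 and 0.07. E2f1, E2f2, Mybl2, Rrm2, Cdc45, Kif20a and Top2a were above 0 in all 28 settings of the analysis. So were Mcm4, Mcm5, Cdc6, Cdc25c, Plk1, Kif11, Kif23, Nusap1, Cenpe, Cenpf, Foxm1 and Mki67. Of the 25 genes above 0, 6 turned below 0 in some setting. Cenpa, Ccne2 and Gins2 were below 0 in all 28. Each setting uses the same tumors or a part of them.

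**Figure D3:**
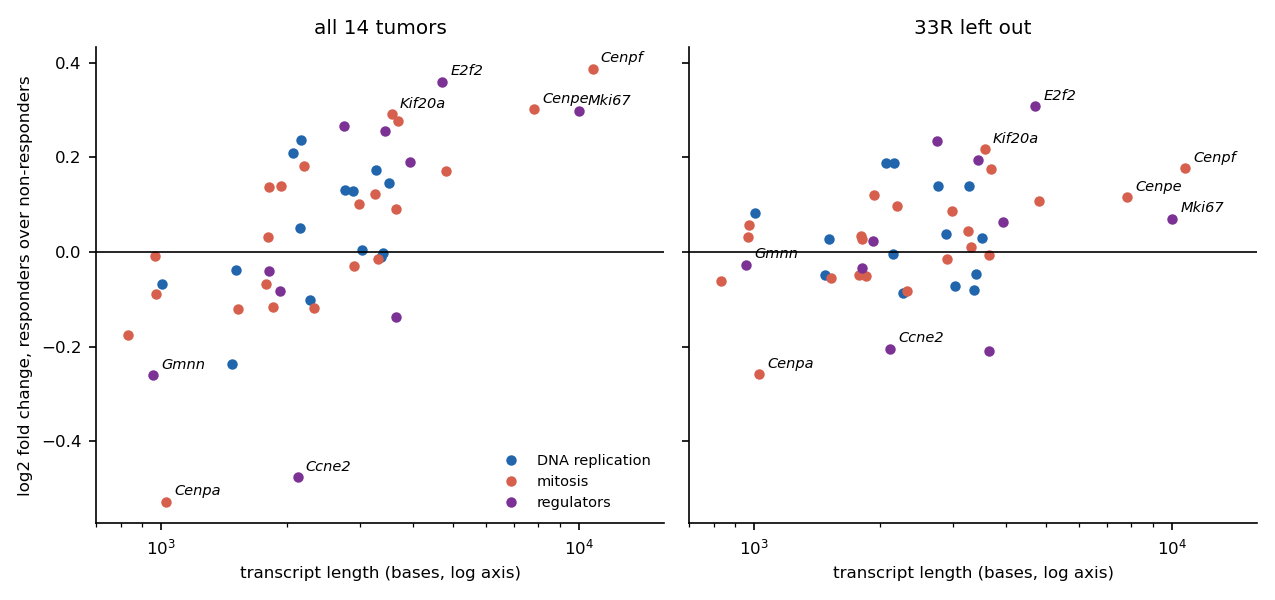
Log2 fold change between responders and non-responders against transcript length in bases (log axis) for the 46 genes, with all 14 tumors and with 33R left out, colored by role. Cenpa and Ccne2 move from -0.53 and -0.48 to -0.26 and -0.20, and Cenpf and Mki67 from 0.39 and 0.30 to 0.18 and 0.07.

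On the TPM scale the values of these genes shifted, and so did those of all genes. With limma on log2(TPM + 1), 43 of the 46 genes had higher means in responders than in non-responders and 8 were called: Cdc45, Kif20a, Mcm5, Mybl2, E2f2, Rrm2, Top2a and E2f1. Of all 16287 genes tested, 2160 were called on that scale. The median of all genes tested lay at 0.17 on that scale, and 34 of the 46 genes lay above it. Relative to that median, the differences of the 8 genes in log2(TPM + 1) were between 0.22 (Mcm5) and 0.40 (Top2a). Between responders and non-responders, the point estimates of Ccnb1, Cdk1, Mcm2, Mcm7, Pcna, Ccne1, Ccnd1, Gmnn and Cdkn1a were below 0 in CPM and above 0 in TPM. Relative to the median of all genes in log2(TPM + 1), Ccnb1 (-0.0065), Cdk1 (-0.083), Mcm7 (-0.068), Ccne1 (-0.028), Ccnd1 (-0.044) and Gmnn (-0.14) were still below 0. Mcm2 (0.084), Pcna (0.047) and Cdkn1a (0.041) were above it.

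Against control IgG tumors, responders differed in none of the 46 genes, where 13.2% of all genes tested were called. By DESeq2, 3012 genes in all were called and 1 of the 46 (Mcm7). The fold changes were below 0 for 30 genes and above 0 for 16, with a median of -0.05 beside -0.01 for all genes. On log2(TPM + 1), 35 of the 46 were above 0, with the median of all genes at 0.09. The smallest adjusted p-values were those of a pair of helicase subunits with point estimates below 0. Mcm7 was at 217, 229.8, 238, 252 and 239 CPM in responders and at 259, 285, 276, 251 and 336 CPM in control tumors. These groups overlapped only through 17R and 30R, and the log2 fold change was -0.26 ± 0.09 (SE, adjusted p = 0.0625, edgeR). Mcm3, singled out after its values were seen, was at 127, 123, 133, 156 and 131 CPM in responders and at 149, 159.7, 160.4, 149 and 191 CPM in control tumors, with a log2 fold change of -0.27 ± 0.10 (SE, adjusted p = 0.10). When the non-responder 33R was left out, both had an adjusted p under 0.05 (edgeR), at 0.0481 for Mcm7 and 0.0425 for Mcm3, with log2 fold changes of -0.26 and -0.27. Over all settings tried, the adjusted p ran from 0.0214 to 0.32 for Mcm7 and from 0.019 to 0.64 for Mcm3. E2f2 was the third of 3 genes with an unadjusted p under 0.05, where 27.9% of all genes had one, with a log2 fold change of 0.31 ± 0.14 (SE, adjusted p = 0.16). For 41 of the 46 genes the 95% interval lay within 1.5-fold, as it did for 79.5% of the 9664 genes of like abundance. There was overlap between these groups for all 46 genes, where 15.1% of all genes tested had none.

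Against control IgG tumors, non-responders differed in none of the 46 genes, and of all genes tested 0% were called (edgeR). By DESeq2, 18 genes in all were called and 0 of the 46. At an unadjusted p under 0.05 there were 758 genes in all (4.65%) and 5 of the 46, each with a log2 fold change below 0. They were Mcm3 (-0.27), Mcm4 (-0.27), Cdc45 (-0.19), E2f1 (-0.24) and Kif23 (-0.26, a kinesin of cytokinesis), named after their values were seen, and all 5 had an adjusted p of 0.93. Without 33R the log2 fold changes were -0.19, -0.15, -0.16, -0.21 and -0.15 in the same order. Of the 46 genes, 39 had a fold change below 0, with a median of -0.12 beside 0.0055 for all genes, and on log2(TPM + 1) all 46 did, with the median of all genes at -0.08. Mcm4, another helicase subunit, was the 1 gene of the set without overlap between these groups, where 1.25% of all genes tested had none. It was at 129, 131, 125, 126 and 149.7 CPM in control tumors and at 114, 124, 124 and 78.1 CPM in non-responders. The 95% interval lay within 1.5-fold for 44 of the 46 genes, and for 88.9% of the 9664 genes of like abundance. The 3 comparisons share tumors and are not independent of each other.

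Replication and mitosis genes were averaged in each tumor, as the mean log2 CPM of the 14 and of the 22 genes. The replication mean was 6.98 ± 0.15 (SD, n = 5) in control tumors, 6.89 ± 0.08 (SD, n = 5) in responders and 6.83 ± 0.12 (SD, n = 4) in non-responders. The mitosis mean was 6.71 ± 0.12, 6.67 ± 0.06 and 6.61 ± 0.10 in the same order. The groups overlapped in both on this scale. Single tumors ran from 6.73 in 33R to 7.21 in 20R for replication and from 6.49 in 33R to 6.82 in 20R for mitosis. The control tumor 20R was thus highest and the non-responder 33R lowest in both. On log2(TPM + 1), every responder had a higher replication mean than every non-responder. The closest were responder 26R at 6.106 and non-responder 32R at 6.098. Control tumors, at 6.081 to 6.392, overlapped both groups. For mitosis, the lowest responder (30L) and the highest non-responder (33L) were both at 5.902. The median difference of all genes tested between these groups was itself 0.17 on that scale.

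The balance between replication and mitosis genes overlapped between the groups on both scales. The replication mean minus the mitosis mean was 0.14, 0.23, 0.35, 0.26 and 0.39 in the control tumors, 0.20, 0.10, 0.29, 0.32 and 0.17 in responders and 0.22, 0.28, 0.14 and 0.25 in non-responders, in log2 CPM. The difference was above 0 in all 14 tumors on this scale, which is not scaled by length. Its mean was 0.27 ± 0.10 (SD, n = 5) in control tumors, 0.22 ± 0.09 (SD, n = 5) in responders and 0.22 ± 0.06 (SD, n = 4) in non-responders. On log2(TPM + 1), which takes length into account, the means were 0.29, 0.21 and 0.22. There too the difference was above 0 in all 14 tumors, from 0.093 in 26R to 0.40 in 20R. On both scales the group means differed by less than the largest SD within a group. No test was run on these means, because the genes were chosen with results of these tumors known.

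**Figure D4:**
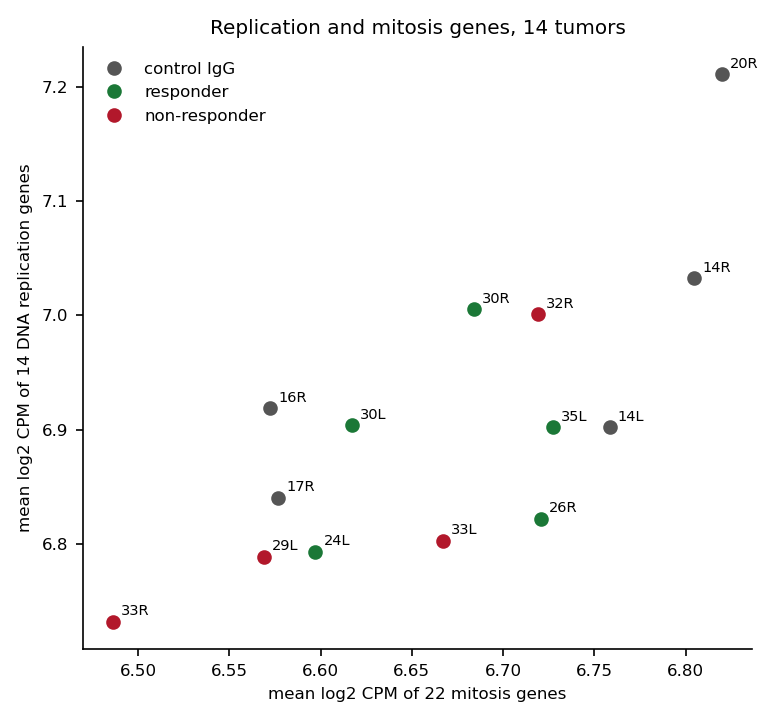
Mean log2 CPM of the 14 DNA replication genes against that of the 22 mitosis genes in each of the 14 tumors, labelled by mouse and flank and colored by group. The groups overlap on both axes, with control tumor 20R highest (7.21 and 6.82) and non-responder 33R lowest (6.73 and 6.49).

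Tumors of 1 mouse differed from each other as well. In mouse 14 (control IgG), 33 of the 46 genes were higher on the right, with a median difference of 0.10 in log2 CPM and a range from -0.78 (Mki67) to 0.63 (Ccne2). In mouse 30 (responders), 33 were higher on the right, with a median of 0.08 and a range from -0.46 (Ccne2) to 0.32 (Plk1). In mouse 33 (non-responders), 18 were higher on the right, with a median of -0.10 and a range from -1.53 (Mki67) to 0.91 (Gmnn). The right tumors of mice 14 and 33 are the ones with the steepest slopes on length. With 3 such mice, each in another group, no test of the flanks was made.

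Some markers of other cell types differed between the groups. The mean log2 CPM of 10 T cell markers was 2.33 to 3.21 in responders, 1.52 to 1.75 in non-responders and 1.13 to 2.19 in control tumors. Of these markers, 9 were called higher in responders than in non-responders. Of 6 erythroid markers tested, 5 were called lower in responders, with means of 1.67 to 3.63 there against 3.84 to 6.35 in non-responders. B and plasma cell markers had means of 0.98 to 1.91 in log2 CPM in the responders, -0.35 to 0.44 in the non-responders and -0.81 to 0.37 in control tumors, and 4 of 9 tested were called higher in responders than in non-responders. Macrophage markers had means of 7.89 to 8.18 in the responders and 7.59 to 7.96 in the non-responders, fibroblast markers 6.37 to 7.09 and 6.15 to 7.08, and endothelial markers 4.27 to 4.54 and 3.81 to 4.29. Of these 3 lists of 10, 1, 1 and 0 markers were called higher in responders, and responders and non-responders overlapped in each. Of the 10 epithelial and colon markers, 8 had enough counts to be tested, and Cdx1 and Vil1 had not. The colon keratin Krt20 had a mean of 381 CPM over the responders against 328 CPM over the non-responders, while the other 7 had means between 0.15 CPM (the colon transcription factor Cdx2) and 10.01 CPM (Krt18) in responders and between 0.51 and 11.2 CPM in non-responders. The mean log2 CPM of the 8 was 1.78 ± 0.79 (SD, n = 5) in responders, 2.27 ± 0.27 (SD, n = 4) in non-responders and 2.66 ± 0.27 (SD, n = 5) in control tumors. None of the 8 was called between responders and non-responders (edgeR), and 1 was called lower in responders than in control tumors. The part of host cells in the levels of the 46 genes was not tested.

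Beyond the 46 genes, 168 further genes of the cell cycle were examined in 6 lists, of which 8 were called between responders and non-responders, 2 higher and 6 lower. That is 4.76% of them, where 9.9% of all genes tested were called. Responders and non-responders did not overlap in 14 of the 168, where 12.8% of all genes tested had no overlap. Of 50 other replication factors, 2 were called, both lower in responders: Orc2, a subunit of the origin recognition complex, and Dut, the enzyme that removes dUTP. Orc2 was at 55.3, 79.3, 69.5, 61.6 and 79.6 CPM in responders and at 91.1, 93.6, 100.4 and 119 CPM in non-responders, and the control tumors lay between 87.3 and 113 CPM. The responders lay below all other tumors. Orc2 fell by 0.55 ± 0.12 on the log2 scale (adjusted p = 0.017, edgeR), and without 33R its log2 fold change was -0.44 with an adjusted p of 0.0531. Dut fell by 0.44 ± 0.12 on the log2 scale (adjusted p = 0.0391, edgeR). Its call was lost when any of 8 tumors (16R, 17R, 24L, 30L, 30R, 32R, 33R or 35L) was left out, with log2 fold changes from -0.51 to -0.30 and an adjusted p of up to 0.12 over all 14 such fits.

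Of 30 other kinetochore genes, 1 was called, Zwint, a partner of the outer kinetochore. It was at 128, 128, 147, 129 and 131 CPM in responders, at 164, 166, 152 and 181 CPM in non-responders and at 154, 176, 165, 150.4 and 192 CPM in control tumors. The responders lay below all other tumors. Zwint fell by 0.32 ± 0.08 on the log2 scale (adjusted p = 0.0318, edgeR). The call was lost without any of 24L, 26R, 30R, 32R, 33R or 35L, with log2 fold changes from -0.36 to -0.26 and an adjusted p of up to 0.0852.

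Of 39 other genes of the spindle, chromosomes and cytokinesis, 1 was called, Cdc25b, which encodes a phosphatase that activates CDKs before mitosis. It was at 161, 165, 167, 167 and 161 CPM in responders, at 137, 129, 124 and 102 CPM in non-responders and at 134, 129.8, 119, 123 and 127 CPM in control tumors. Every responder lay above every other tumor. Cdc25b rose in responders, with a log2 fold change of 0.41 ± 0.08 (SE, adjusted p = 0.0102, edgeR). None of 19 other G1 cyclins, kinases and E2F factors and none of 15 brakes of the cycle was called in this comparison (edgeR), with 4 and 5 at an unadjusted p under 0.05.

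The p53 target genes held 4 calls among 15, 3 lower and 1 higher in responders. Gadd45a, a stress gene that can hold cells in G2, was at 13.02, 23.03, 24.9, 12.9 and 16.5 CPM in responders and at 47.9, 43.8, 39.6 and 47.2 CPM in non-responders, with control tumors at 31.8, 31.2, 59.8, 61.01 and 66.6 CPM. The responders lay below all other tumors. Gadd45a fell by 1.31 ± 0.25 on the log2 scale (adjusted p = 0.0105, edgeR). Plk2, a kinase of the polo family, fell by 0.66 ± 0.15 on the log2 scale (adjusted p = 0.018, edgeR), and its call was lost without 24L or 32R, with log2 fold changes from -0.82 to -0.58 and an adjusted p of up to 0.0509. Mdm2, whose product degrades p53, fell by 0.41 ± 0.09 on the log2 scale (adjusted p = 0.014, edgeR). Sesn1, a sestrin, was higher at 0.44 ± 0.10 (SE, adjusted p = 0.0192, edgeR), and its call was lost without 24L, 30R or 32R, with log2 fold changes from 0.36 to 0.51 and an adjusted p of up to 0.057. Cdkn1a, a p53 target among the 46 genes, did not pass the test.

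Most of these 8 calls did not hold when each mouse gave 1 tumor. With the left tumor alone from mice 14, 30 and 33, the calls of Orc2, Dut, Zwint, Plk2, Mdm2 and Sesn1 between responders and non-responders were lost, and those of Cdc25b and Gadd45a were kept. The log2 fold changes were then -0.41 for Orc2, -0.28 for Dut, -0.25 for Zwint, -0.57 for Plk2, -0.30 for Mdm2 and 0.43 for Sesn1, with adjusted p-values from 0.0501 (Mdm2) to 0.19 (Dut, edgeR). For Cdc25b and Gadd45a they were 0.34 and -1.17, with adjusted p-values of 0.0246 and 0.0339. This fit lacks 14R, 30R and 33R, and so the tumors with the steepest slopes on length, 33R and 14R. With 33R alone left out, the calls of Orc2, Dut and Zwint were lost and those of Plk2, Mdm2 and Sesn1 were kept. Whether the losses rest on pairing, on 33R or on fewer tumors was not tested. On log2(TPM + 1), the calls of Orc2, Dut, Zwint, Plk2 and Mdm2 were lost too. With responders and non-responders alone in the fit, those of Dut, Zwint, Mdm2 and Sesn1 were lost, with adjusted p-values of 0.0757, 0.0642, 0.0512 and 0.0602 (edgeR).

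Against control IgG tumors, 16 of the 168 genes were called in responders, 5 higher and 11 lower, or 9.52% beside 13.2% of all genes tested. Responders and control tumors did not overlap in 20 of the 168, where 15.1% of all genes tested had no overlap. Orc2 (log2 fold change -0.51, adjusted p = 0.0113, edgeR) and Zwint (-0.33, adjusted p = 0.0141) were lower and Cdc25b higher (0.37, adjusted p = 0.00537). Among the p53 target genes, Plk2 (-0.91), Gadd45a (-1.47) and Mdm2 (-0.45) were lower and Sesn1 (0.61) and Trp53inp1 (0.69) higher, with adjusted p-values between 0.00168 and 0.00402. Phlda3, named after its values were seen, was the third called higher (0.31, adjusted p = 0.0347). This comparison shares the responder tumors with the one before.

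In the same comparison 5 of the 19 G1 cyclins, kinases and E2F factors were called, 4 lower and 1 higher. Myc, which encodes a transcription factor that drives entry into the cycle, was at 119, 95.7, 146, 122 and 98.04 CPM in responders and at 169, 152, 196, 186 and 182 CPM in control tumors. These groups did not overlap, and the non-responders, at 155, 140.4, 149 and 113 CPM, overlapped both. Myc fell by 0.61 ± 0.12 on the log2 scale (adjusted p = 0.00563, edgeR). Ccnd3, the gene of a D-type cyclin, was higher, with a log2 fold change of 0.39 ± 0.11 (SE, adjusted p = 0.0356, edgeR). Tfdp2, whose product is an E2F partner, and Lin9 and Lin52, both of MuvB, were lower, with log2 fold changes of -0.33, -0.33 and -0.37. So were the kinesin gene Kifc1 (-0.25) and, among the 15 brakes, Btg1 (-0.30).

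Several of these calls against control IgG lay near the threshold. Of the 14 fits that each leave out 1 tumor, the call was lost in 3 for Lin9 (without 20R, 24L or 30R), in 4 for Btg1 (16R, 17R, 26R or 30R) and in 6 for Ccnd3 (16R, 17R, 20R, 24L, 30L or 30R). It was lost in 7 for Kifc1 (14L, 14R, 20R, 24L, 30L, 30R or 35L), in 9 for Tfdp2 (14L, 16R, 17R, 20R, 24L, 26R, 30L, 30R or 32R) and in 11 for Lin52 (14L, 14R, 16R, 17R, 20R, 24L, 26R, 30L, 30R, 32R or 33L). The highest adjusted p among these was 0.13 (edgeR, Lin52), and the log2 fold changes stayed between -0.42 and -0.21 for the lower genes and between 0.33 and 0.49 for Ccnd3. With 1 tumor per mouse the 15 calls named by the rule against control IgG were kept, and on log2(TPM + 1) 7 were lost, those of Myc, Zwint, Kifc1, Lin9, Tfdp2, Lin52 and Btg1. Non-responders differed from control IgG tumors in none of the 168 genes (edgeR), with 8 (4.76%) at an unadjusted p under 0.05, beside 4.65% of all genes.

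**Figure D5:**
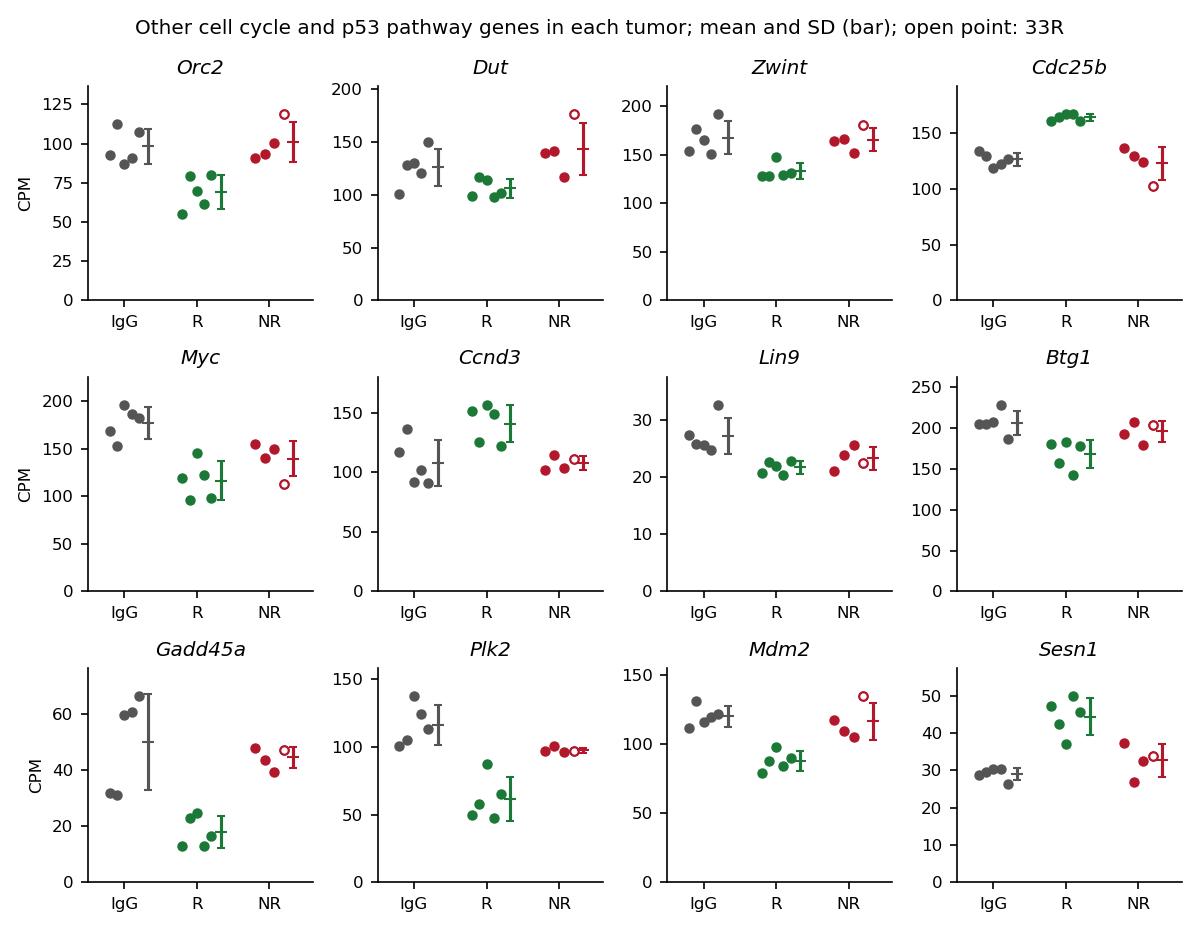
CPM of 12 other genes of the cell cycle and the p53 pathway in each tumor (points), with the mean and SD of each group (bars) for control IgG, responders and non-responders, and 33R drawn open. The responders lie below all other tumors for Orc2, Zwint, Gadd45a, Plk2 and Mdm2 and above all others for Cdc25b. The 12 genes were picked from those called. Of the 168 genes examined, 14 had no overlap between responders and non-responders, where 12.8% of all genes tested had none.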

How the data were processed

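Bulk RNA-seq of 14 tumors was used. Per the labels, mRNA was enriched with oligo(dT) beads for paired-end libraries, and per the study's methods the authors aligned reads with STAR and quantified them with RSEM on mm10. The settings are described for cell lines, and the annotation release is not given in the sources used here. The deposited files hold expected counts, TPM and FPKM per gene as the authors' RSEM run estimated them. Expected counts were rounded for tests, TPM served for levels per length, and FPKM were not used. Totals of 33237744 to 48481461 put a floor of 3 counts at 0.0619 to 0.0903 CPM.

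Groups came from the labels. Tests used edgeR 4.0.16 (R 4.3.3; TMM, filterByExpr, quasi-likelihood test) on all 14 tumors in 1 fit, with Benjamini-Hochberg adjustment over 16287 genes. Log2 CPM used a prior count of 2. DESeq2 1.42.0, limma 3.58.1 and the other alternatives are listed in the closing section. The members and lists were chosen with earlier results of these data known. By rule, values are printed for 25 genes: 19 picked by name and, in each role, the 2 highest and 2 lowest fold changes between responders and non-responders, and for at most 5 called genes of each further list. Values of some other genes, such as Kif20a, Mcm3, Mcm4, Kif23, Ube2c and Phlda3, are printed outside this rule. These were picked after the values were seen, or by level, exon overlap or distance from their group.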

Additional observations from a re-analysis of the deposited data

Results flagged for a closer look

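In 147 sets of values (the 46 genes, the replication and mitosis means and their difference, in each of the 3 groups), 5 had 1 tumor far from the others of its group by Dixon's criterion, where chance gives about 1 in 20. In log2 CPM, control tumor 20R was high for Mcm4 (7.226, others 6.966 to 7.034) and Mcm6 (8.086, others 7.668 to 7.751), both helicase subunits. Responder 24L was low for Tyms, the gene of thymidylate synthase (5.678, others 5.942 to 6.004), and for Cdk1 (6.868, others 7.04 to 7.075). Non-responder 33R was low for the spindle gene Tpx2 (6.761, others 7.263 to 7.298).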

How the results depend on the processing

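The 46 genes held 0 calls in each comparison by edgeR, and non-responders against control IgG stayed at 0 in all 27 alternatives. Between responders and non-responders, the calls were 2 with DESeq2 (Kif20a and Cenpa), 4 with limma-voom once mouse was a random effect (Kif20a, Top2a, E2f1 and Cenpa), 1 with the length offset (Ccnd1, lower), 8 on log2(TPM + 1) and 8 on log2(TPM + 0.1), and 0 to 1 with 1 tumor left out (E2f1 without 26R, Cenpa without 29L). The fit with mouse as a random effect put the correlation between tumors of 1 mouse at -0.28, a negative value. With 1 library per mouse the calls were 0. Between responders and control IgG they were 1 with DESeq2 (Mcm7), 1 with 1 library per mouse (Mcm3), 3 with the length offset (Mcm7, Mcm3 and Ccnd1), and 0 to 2 with 1 tumor left out (Mcm7 and Mcm3 without 33R). RLE and upper quartile scaling, no filter on counts, a filter of 1 CPM in 4 tumors, limma-voom without mouse, a fit of 2 groups only and leaving out 33R and 14R together, chosen after seeing the data, gave 0. The cause was not tested.

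Of the 21 genes below 0 between responders and non-responders, 18 turned above 0 in some setting, and of the 25 above 0, 6 turned below (Aurkb, Bub1b, Cdt1, Mcm3, Mcm6 and Tpx2). Values follow for the 9 that turned above 0 among the 25 genes named by the rule. On log2(TPM + 1) and log2(TPM + 0.1), where the median of all genes was 0.17 and 0.23, they were 0.16 and 0.16 for Ccnb1, 0.086 and 0.087 for Cdk1, 0.25 and 0.26 for Mcm2, 0.22 and 0.22 for Pcna, 0.14 and 0.15 for Ccne1, 0.12 and 0.13 for Ccnd1, 0.031 and 0.031 for Gmnn, 0.21 and 0.21 for Cdkn1a and 0.10 and 0.10 for Mcm7. With the length offset they were 0.021 for Cdk1, 0.049 for Pcna and 0.0045 for Cdkn1a. With mouse as a random effect they were 0.034 for Mcm2 and 0.022 for Cdkn1a. Mcm2 was at 0.0079 with no filter, 0.0094 with the filter of 1 CPM and 0.0032 with 2 groups only. Pcna was at 0.016 with 1 library per mouse, and without 33R and 14R Pcna was at 0.027 and Ccne1 at 0.024. With 1 tumor left out, Mcm2 ran from -0.080 to 0.082, Pcna from -0.074 to 0.027, Ccne1 from -0.16 to 0.024 and Cdkn1a from -0.13 to 0.12. The replication minus mitosis level moved by less than the SD within groups in all settings that gave it.

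Of all genes, 1612 were called between responders and non-responders by edgeR, against 2634 with DESeq2, 2973 with mouse as a random effect, 520 with 1 library per mouse, 689 with 2 groups only, and 569, 686, 615 and 793 without 24L, 30R, 32R or 33R. With the length offset 2088 were called, on log2(TPM + 1) 2160 and on log2(TPM + 0.1) 2104. Without 26R or 29L the calls were 1417 and 1978. Against control IgG, responders had 2147 calls, against 1190, 1192, 1387 and 3385 without 20R, 24L, 30R or 33R and 3249 without 33R and 14R. Responders had 3012 calls with DESeq2, 2797 with 1 library per mouse and 3101 with the length offset. Non-responders had 0, against 18 with DESeq2, 3 with no filter and 5 without 35L. No paired analysis was possible because the groups share no replicate numbers and no mouse gave tumors to more than 1 group. Groups of 4 or 5 tumors, 3 mice with a pair of tumors each and 1 tumor with a strong trend on length limit what these counts can show.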
